A study of Mus musculus with 6 samples.

Results

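The CXC chemokines described here are 10 mouse genes for small secreted attractants, Cxcl1, Cxcl2, Cxcl3, Cxcl5, Cxcl9, Cxcl10, Cxcl12, Cxcl13, Cxcl14 and Cxcl16. They were followed at every probe that the supplied platform annotation names for them. This gave 17 of the 45281 probes of the array, and 9 of the 10 genes among the 19057 genes tested. Cxcl5 was not analysed here, because no probe carried its name. The samples were cultured mouse embryonic fibroblasts of strain C57Bl/6NCr, hybridised to Illumina bead arrays as labelled RNA copies. Wild-type cells were Lasp1+/+ and knockout cells Lasp1-/-, with 3 arrays for each genotype, and the labels name no treatment. Lasp1 codes for an actin-binding protein of focal adhesions, and the study's title links its disruption to cell migration and tumour formation. The labels describe neither the knockout allele nor whether arrays of a genotype came from separate embryos or cultures, so p-values measure the spread between these arrays, which may be technical.

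CXC chemokines are named for a pair of cysteines separated by 1 residue near the start of the mature protein. They bind G protein-coupled receptors on migrating cells and guide them along gradients. The neutrophil-attracting members act mainly on CXCR2 and are induced in fibroblasts by interleukin-1, tumour necrosis factor and bacterial products through NF-kB. The interferon-induced members draw T cells and natural killer cells through CXCR3, and the homeostatic members position cells in tissues without inflammation.

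Values are deposited intensities, which reflect how much RNA bound to a probe. Every array had a median of 1000 over its probes and no value came near 0, so a probe near 1000 lay in the range of background light and its fold understates any change. Upper quartiles ranged from 2018 to 2330. Lasp1 itself was lower in every knockout array at its brightest probe: the wild-type mean was 144104 ± 7634 and the knockout mean 50898 ± 1072 (SD, n = 3 each). Differences are log2 knockout minus wild type from limma, with moderated standard error (SE). A gene, represented by its brightest probe, was said to rise or fall at a Benjamini-Hochberg adjusted p under 0.05 over all genes. Lasp1 differed by -1.50 ± 0.07 (SE) at its brightest probe, where the knockout signal stayed far above the array median. Its other probes differed by -2.03 ± 0.15 (ILMN_2879745) and -0.26 ± 0.08 (ILMN_2596851). The last was near the array median and did not pass over all probes (limma adjusted p = 0.121). The source of the remaining Lasp1 signal was not tested.

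Cxcl1 and Cxcl12 rose in Lasp1 knockout fibroblasts, and Cxcl10 fell. Cxcl1 was 3.2-fold higher, Cxcl12 was 1.81-fold higher and Cxcl10 was 1.48-fold lower. The other 6 measured members, Cxcl2, Cxcl3, Cxcl9, Cxcl13, Cxcl14 and Cxcl16, did not pass the test. Of all genes tested, 2.20% rose and 4.09% fell (6.29% together), which is the background for 2 rises and 1 fall among 9 genes. Of the 9, 6 were brighter than the typical probe, meaning that their mean exceeded the median of such means, and of all genes that bright 3.47% rose and 6.49% fell (9.96% together). Among the 17 probes, 2 rose and 1 fell in a fit of all probes, where 1.40% rose and 2.50% fell, and 6 separated the genotypes, against 18.5% of all probes. The knockout arrays lay wholly to one side of the wild-type arrays in 4 of the 9 genes, against 21.3% of all genes. The median log2 difference was 0.15 over the 9 genes and -0.02 over all genes. The plot of the 17 probes by array shows which of them were bright enough to be measured well.

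**Figure D1:**
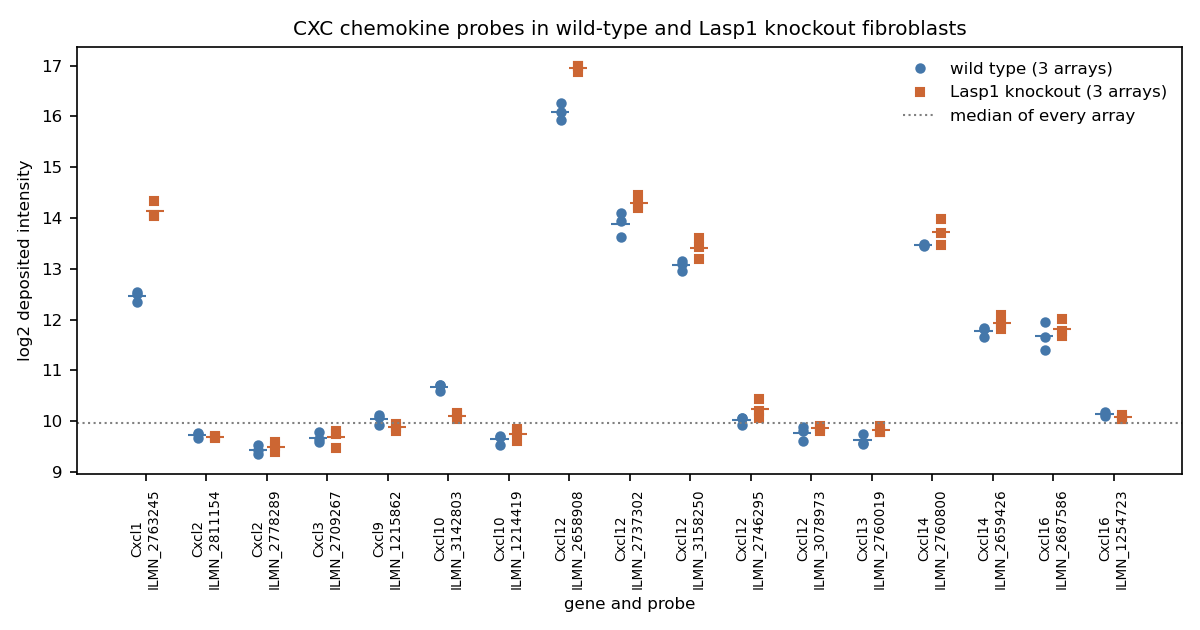
Log2 deposited intensity (vertical axis) of the 17 CXC chemokine probes (horizontal axis, named by gene and probe) in 3 wild-type arrays (circles) and 3 Lasp1 knockout arrays (squares), with a short line at each group mean and a dotted line at the array median of 1000. The Cxcl1 probe, the brighter Cxcl10 probe, the Cxcl13 probe and the Cxcl12 probes ILMN_2658908, ILMN_2737302 and ILMN_3158250 separate the genotypes. Of these, the Cxcl1 probe, the brighter Cxcl10 probe and ILMN_2658908 passed over all probes. The Cxcl2, Cxcl3, Cxcl9 and Cxcl13 probes lie around or below the dotted line.

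Cxcl1, the neutrophil attractant also known as KC, was the neutrophil-attracting member that could be measured well. Its probe (ILMN_2763245) read 5960, 5232 and 5801 in wild type and 20726, 17043 and 16758 in knockout. Every knockout array lay above every wild-type array, and the lowest knockout value was far from the highest wild-type value. The means were 5664 ± 383 and 18176 ± 2213 (SD, n = 3 each), a log2 difference of 1.68 ± 0.10 (SE) with a limma adjusted p of 3.18e-05. An exact two-sided permutation test of this difference gave p = 0.1, the smallest that 3 arrays against 3 allow. In bulk RNA, a change in the number of cells making a transcript and a change in transcript per cell cannot be told apart.

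Cxcl2, also called MIP-2, was dim in both genotypes at both of its probes. The brighter probe (ILMN_2811154) read 869, 864 and 816 in wild type and 837, 829 and 813 in knockout. These values overlapped and all lay below the array median. The log2 difference was -0.04, with a 95% interval of -0.19 to 0.12 and a limma adjusted p of 0.858. The other Cxcl2 probe (ILMN_2778289) differed by 0.06 ± 0.08 (SE). Cxcl3, a close relative of both, read 772, 883 and 807 in wild type and 716, 866 and 898 in knockout. Its log2 difference was 0.01, with a 95% interval of -0.22 to 0.23 (limma adjusted p = 0.99). At these intensities a change in Cxcl2 or Cxcl3 RNA below the range of background light was not detectable.

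The sequences before the start sites are shown because Cxcl1, Cxcl2 and Cxcl3 share an NF-kB type motif letter for letter although only Cxcl1 was bright, and Cxcl10 holds matches of both kinds searched. Promoter windows from RefSeq (build GRCm38.p6) hold 250 bases before and 50 bases after the annotated start, and they were given for 8 of the 10 genes. Capitals mark matches, on either strand, to the kappaB consensus or to the core of interferon-stimulated response elements, which is GAAA, any 2 bases and GAAA.
Cxcl1, chr5:90891159-90891199, plus strand: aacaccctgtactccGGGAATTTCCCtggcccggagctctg
Cxcl2, chr5:90903787-90903827, plus strand: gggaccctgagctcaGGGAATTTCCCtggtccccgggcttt
Cxcl3, chr5:90786013-90786053, plus strand: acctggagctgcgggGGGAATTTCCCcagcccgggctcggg
Cxcl10, chr5:92348968-92349117, minus strand: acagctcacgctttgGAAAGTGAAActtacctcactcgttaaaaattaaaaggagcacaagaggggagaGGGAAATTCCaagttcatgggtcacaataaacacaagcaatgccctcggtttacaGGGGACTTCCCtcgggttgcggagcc
The longest run with a kappaB match that the first 3 share, GGGAATTTCCC, begins 71 bases before the start site in Cxcl1, 97 in Cxcl2 and 73 in Cxcl3. It holds 2 overlapping matches and occurs in 0.0426% of the 32851 promoter windows. The kappaB consensus occurs in 8.46% of windows and the response element core in 3.44%. Cxcl10 holds the kappaB consensus at 159, 104 and 103 bases before its start, the last 2 overlapping, and the response element core at 213 bases. The window of Cxcl14 holds that core at 172 bases, and in those of Cxcl9, Cxcl12 and Cxcl13 neither motif was found. A match describes these letters and is no site of binding.

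Cxcl10, also called IP-10, was the interferon-induced member that fell. Its brighter probe (ILMN_3142803) read 1684, 1553 and 1680 in wild type and 1054, 1144 and 1124 in knockout. The groups did not overlap, and the knockout arrays came close to the array median. The means were 1639 ± 74.6 and 1107 ± 47.2 (SD, n = 3 each), a log2 difference of -0.57 ± 0.07 (SE) with a limma adjusted p of 0.00218. The exact two-sided permutation p was 0.1. A second Cxcl10 probe (ILMN_1214419) lay below the array median in every array, at 829, 834 and 740 in wild type and 882, 916 and 779 in knockout, and did not show the fall (0.10 ± 0.08, limma adjusted p = 0.699 over all probes). The mean over both probes did not pass (-0.23, limma adjusted p = 0.0629), and a correction for background light raised the difference to -1.11 (limma adjusted p = 0.00461). Over the 14 alternatives tried, the adjusted p of Cxcl10 ran from 6.41e-05 to 0.0629.

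Cxcl9, also called MIG, which shares the receptor CXCR3 with Cxcl10, did not pass. It read 971, 1115 and 1092 in wild type and 892, 988 and 952 in knockout, values around the array median that overlapped by a single wild-type array. The log2 difference was -0.17, with a 95% interval of -0.35 to 0.02 (limma adjusted p = 0.338).

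Cxcl12, the stromal attractant SDF-1, which holds blood-forming and other cells in place through CXCR4, rose at its brightest probe. That probe (ILMN_2658908) read 62531, 78088 and 69277 in wild type and 120255, 129486 and 129323 in knockout. All knockout arrays were above all wild-type arrays. The means were 69965 ± 7802 and 126354 ± 5283 (SD, n = 3 each), a log2 difference of 0.86 ± 0.09 (SE) with a limma adjusted p of 0.000763 and an exact permutation p of 0.1. The annotation gives Cxcl12 5 probes on 3 RefSeq transcripts, with the brightest probe on a transcript of its own.

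The other 4 probes of Cxcl12 did not pass. The next brightest (ILMN_2737302) read 12564, 15638 and 17568 in wild type and 19651, 18799 and 22382 in knockout, without overlap. Its log2 difference was 0.42 ± 0.12 (SE), which did not pass over all probes (limma adjusted p = 0.109). The third (ILMN_3158250) read 7919, 9151 and 8738 in wild type and 11092, 9349 and 12401 in knockout, again without overlap, with a difference of 0.34 ± 0.11 (SE, limma adjusted p = 0.14). Within an array, the log2 ratio of the brightest to the next probe was 2.20 ± 0.20 in wild type and 2.64 ± 0.13 in knockout, and that of the brightest to the third was 3.02 ± 0.06 and 3.54 ± 0.22 (SD, n = 3 each). Both ratios were higher in every knockout array. The exact two-sided permutation p was 0.1 each, also 0.1 when adjusted over the 5 within-array ratios computed. As 0.1 is the smallest p that 3 arrays against 3 allow, this test could not decide whether the probes changed unequally. Both dim probes of Cxcl12 differed upward by less, 0.22 ± 0.10 (ILMN_2746295) and 0.09 ± 0.08 (ILMN_3078973), and did not pass. The mean over all Cxcl12 probes rose by 0.39 (limma adjusted p = 0.0106). Whether the probes tell the transcripts apart was not determined here.

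Cxcl14, an attractant made by skin and stromal cells, was bright at both probes and did not pass. Its brighter probe (ILMN_2760800) read 11281, 11247 and 11444 in wild type and 16259, 11294 and 13322 in knockout. The wild-type arrays lay close together, and knockout replicate 2 lay among them. The log2 difference was 0.25, with a 95% interval of -0.02 to 0.52 (limma adjusted p = 0.315), and it passed after quantile normalization (0.36, limma adjusted p = 0.0274). The dimmer probe (ILMN_2659426) differed by 0.17 ± 0.09 (SE). Cxcl13, the B cell attractant of lymphoid follicles, read 766, 747 and 862 in wild type and 955, 888 and 882 in knockout. The groups did not overlap, but all arrays lay below the array median and the difference of 0.20 ± 0.08 (SE) did not pass (limma adjusted p = 0.22).

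Cxcl16, which is made as a membrane-anchored ligand of CXCR6 and shed by the protease ADAM10, did not pass. Its brighter probe (ILMN_2687586) read 2713, 3956 and 3232 in wild type and 4103, 3289 and 3495 in knockout, with broad overlap. The log2 difference was 0.15, with a 95% interval of -0.16 to 0.46 (limma adjusted p = 0.678). The other Cxcl16 probe (ILMN_1254723) differed by -0.06 ± 0.06 (SE).

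Set side by side by role, the neutrophil-attracting members had 1 rise among 3 measured genes and a median log2 difference of 0.01. The interferon-induced members had 1 fall among 2 and a median of -0.37. The homeostatic members had 1 rise among 3 and a median of 0.25. Over all genes, 2.20% rose and 4.09% fell. The neutrophil-attracting median is the value of Cxcl3, which like Cxcl2 lay in the range of background light, so the roles were not compared at like intensity. Cxcl15, a neutrophil attractant that is not among the members, fell (-1.70 ± 0.15, SE) and is not counted here.

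**Figure D2:**
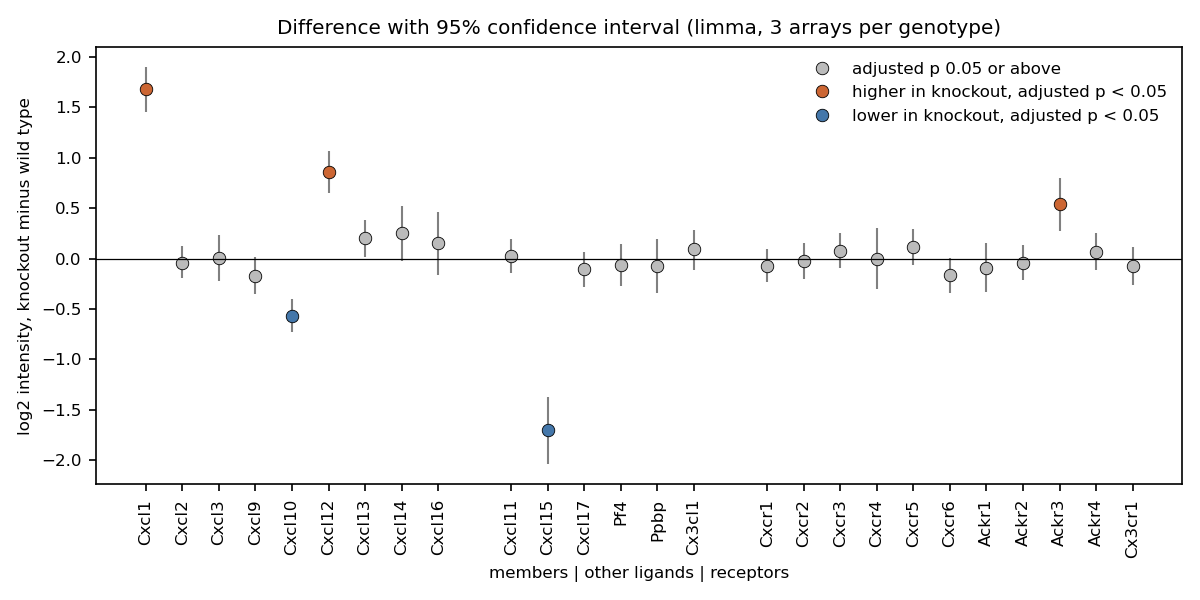
Log2 difference, knockout minus wild type (vertical axis), of the 9 measured members, 6 other ligands and 11 receptors (horizontal axis), with 95% confidence intervals from limma over 3 arrays per genotype. Cxcl1, Cxcl12 and the receptor gene Ackr3 are called higher, Cxcl10 and Cxcl15 are called lower, and the other genes did not pass, which does not show that they were equal.

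Among 6 other CXC and CX3C ligand genes, Cxcl15 fell and 5 did not pass, where 4.09% of all genes fell. Cxcl15, also called lungkine, is a neutrophil attractant known from mouse lung epithelium. It read 4466, 4737 and 6900 in wild type and 1551, 1697 and 1604 in knockout. The groups did not overlap, and wild type replicate 3 was the highest. The fall was 3.26-fold, with a log2 difference of -1.70 ± 0.15 (SE) and a limma adjusted p of 0.000247. Cx3cl1, a membrane-anchored attractant, differed by 0.09 ± 0.09 (SE), Ppbp and Pf4, which platelets store, by -0.07 ± 0.12 and -0.06 ± 0.09, Cxcl17 by -0.10 ± 0.08 and Cxcl11 by 0.03 ± 0.07.

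Of 11 receptor genes, Ackr3 rose and 10 did not pass, where 2.20% of all genes rose. Of the 11, 5 were brighter than the typical probe. Ackr3, formerly Cxcr7, is an atypical receptor that binds Cxcl12 and takes it up. It read 1057, 1266 and 968 in wild type and 1797, 1481 and 1484 in knockout, without overlap, at intensities not far above the array median. The log2 difference was 0.54 ± 0.12 (SE) with a limma adjusted p of 0.0273. The call was lost when wild type replicate 3 was left out (0.45, limma adjusted p = 0.138). Leaving out knockout arrays 1, 2 and 3 in turn also lost it (0.44, 0.58 and 0.58, limma adjusted p = 0.0689, 0.0658 and 0.0893). Background correction also lost it at a larger difference (1.08, limma adjusted p = 0.0636), as did the replicate number as a block (0.54, limma adjusted p = 0.106). Cxcr2, the receptor of Cxcl1, read 859, 982 and 897 in wild type and 870, 908 and 912 in knockout, and Cxcr4, the signalling receptor of Cxcl12, read 957, 962 and 743 in wild type and 845, 1045 and 775 in knockout. Both lay around or below the array median. The differences of Cxcr1, Cxcr3, Cxcr5 and Cxcr6 were -0.07, 0.08, 0.11 and -0.16, and each of these genes was dimmer than the typical probe. Those of the atypical receptors Ackr1, Ackr2 and Ackr4 were -0.09, -0.04 and 0.07, and that of Cx3cr1 was -0.07.

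Most mouse CXC ligand genes lie on chromosome 5, and their neighbours, taken in the gene order of RefSeq GRCm38.p6, were compared after the values had been seen. In the run that holds Cxcl5, Ppbp, Pf4, Cxcl3, Cxcl15, Cxcl1 and Cxcl2, Cxcl15 and Cxcl1 are adjacent protein-coding genes, and they differed in opposite directions (-1.70 and 1.68). Of the 9 measured genes among the 10 that flank this run, 0 rose and 0 fell by limma. They include Rassf6 (-0.07 ± 0.07) on one side and Mthfd2l (-0.07 ± 0.08) and the growth factor gene Ereg (0.00 ± 0.09) on the other. Only genes listed as protein-coding were taken, and Cxcl11 (0.03 ± 0.07) was not among them. Cxcl9 and Cxcl10 lie in a second run with Art3 (-0.05 ± 0.07) between them. Of 10 other genes measured there, 1 rose, the glycogen-binding protein gene Stbd1 (0.80 ± 0.09, limma adjusted p = 0.000829). At Cxcl13, 1 of 4 measured neighbours rose, Anxa3, which codes for an annexin (0.49 ± 0.09, limma adjusted p = 0.0102). These counts of neighbours stand against 2.20% of all genes that rose and 4.09% that fell. The call of Anxa3 was lost in 3 of 14 alternatives, with limma adjusted p up to 0.138, among them the one leaving out wild type replicate 3.

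**Figure D3:**
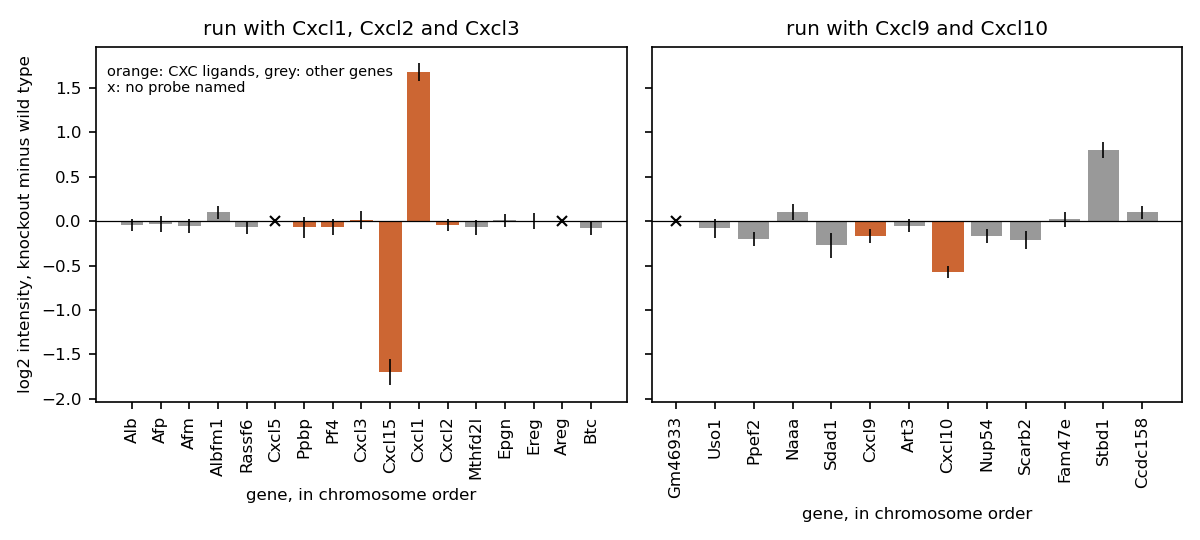
Log2 difference, knockout minus wild type (vertical axis; bars with SE from limma, n = 3 arrays per genotype), of genes in chromosome order (horizontal axis, not to scale) around 2 runs of CXC ligand genes on chromosome 5. Cxcl15 and Cxcl1 stand next to each other at -1.70 and 1.68, while their measured neighbours lie close to 0, and Cxcl10 (-0.57) and Stbd1 (0.80) stand out in the second run. Only protein-coding genes are shown.

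Genes that carry, restrain or respond to signals for the neutrophil-attracting chemokines were counted together, so a rise among them need not mean more signal. Their list, like the others, was chosen with earlier results of these data known. Of 32 measured genes of the NF-kB, interleukin-1, tumour necrosis factor and interleukin-17 input, 4 rose, 0 fell and 28 did not pass by limma. Of the 32, 28 were brighter than the typical probe, and of all genes that bright 3.47% rose and 6.49% fell. The median log2 difference was 0.09. Nfkbiz, a nuclear partner of NF-kB that is needed for a subset of its targets, read 12492, 13684 and 11659 in wild type and 38927, 28833 and 33315 in knockout. It rose by 1.41 ± 0.11 (SE, limma adjusted p = 0.000182) and passed in all 14 alternatives. Il1rn, the secreted antagonist of the interleukin-1 receptor, rose by 2.25 ± 0.09 (limma adjusted p = 4.12e-06). Its difference was 0.64 to 2.47 over the alternatives, and the mean over its probes gave the lowest value. Tlr4, the receptor for bacterial lipopolysaccharide, rose by 0.53 ± 0.08 (limma adjusted p = 0.00462), and Tlr2, a receptor for bacterial lipopeptides, by 0.37 ± 0.09 (limma adjusted p = 0.0494). The call of Tlr2 was lost in 9 of 14 alternatives, with limma adjusted p up to 0.225, among them those leaving out wild type replicate 1 or 3 or any knockout array. That of Tlr4 was lost in 2, background correction and the mean over its probes (0.22, limma adjusted p = 0.0789). Il1b, Tnf and Il1a, the cytokines that start this input, lay below the array median in nearly all arrays, with differences of 0.16 ± 0.10, 0.10 ± 0.07 and 0.13 ± 0.07. Nfkbia, an inhibitor that NF-kB itself induces, differed by 0.36 ± 0.12 (limma adjusted p = 0.142), and the subunit gene Rela by -0.04 ± 0.12.

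Of 17 measured interferon input genes, which act upstream of Cxcl9 and Cxcl10, 4 fell, 0 rose and 13 did not pass by limma. Their median log2 difference was -0.07. Of all genes 4.09% fell, and of those brighter than the typical probe, as 13 of the 17 were, 6.49% fell. Irf7, an interferon-induced transcription factor, read 2527, 4362 and 3194 in wild type and 1603, 1484 and 1353 in knockout. It fell by 1.15 on the log2 scale (SE 0.17, limma adjusted p = 0.0044). Jak2, a kinase of the interferon gamma receptor, fell by 0.69 (SE 0.08, limma adjusted p = 0.000815), and by 0.36 with the mean over its probes. Irf9 and Stat2, partners in the factor that type I interferons activate, both fell by 0.63 (SE 0.11 and 0.15, limma adjusted p = 0.0111 and 0.0391). Irf9 and Stat2 both lost their calls when wild type replicate 3 or knockout replicate 3 was left out, which left 2 falls, with limma adjusted p up to 0.0778 and 0.193 over the alternatives. Stat2 also lost it when knockout replicate 1 or 2 was left out. Irf1, a target of interferon gamma, differed by -0.16 ± 0.11 (SE).

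**Figure D4:**
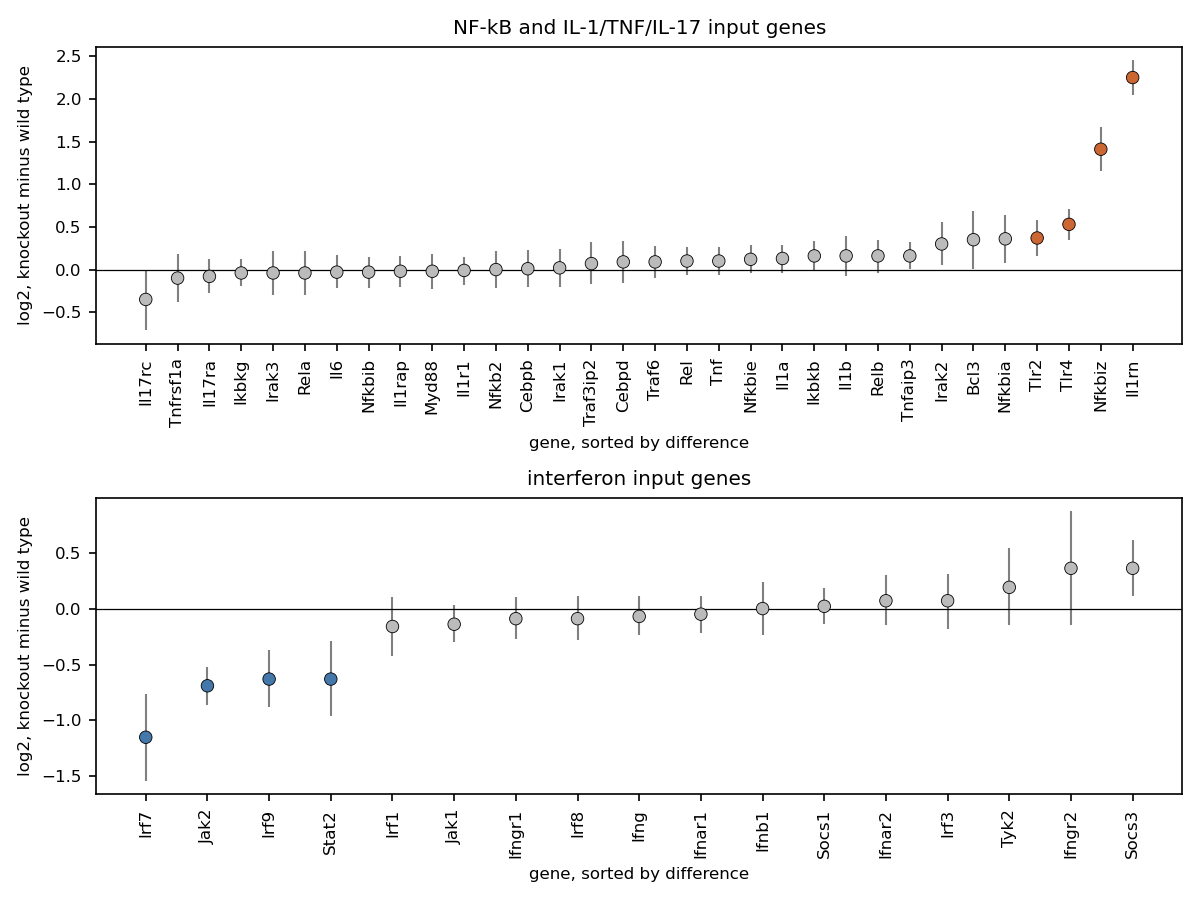
Log2 difference, knockout minus wild type (vertical axis), with 95% confidence intervals from limma (3 arrays per genotype), for 32 NF-kB, IL-1, TNF and IL-17 input genes (upper panel) and 17 interferon input genes (lower panel), sorted by difference along the horizontal axis. Il1rn, Nfkbiz, Tlr4 and Tlr2 are called higher (orange), and Irf7, Jak2, Irf9 and Stat2 are called lower (blue).

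Genes acting on chemokine RNA and protein were examined in the same way, against 2.20% of all genes that rose and 4.09% that fell. Of 9 genes for turnover of chemokine mRNA, Zc3h12a, a nuclease that degrades inflammatory transcripts, rose by 0.40 ± 0.08 (SE, limma adjusted p = 0.0209), and 8 did not pass. That call was lost in 7 of 14 alternatives, with adjusted p up to 0.136, among them those leaving out wild type replicate 3 or any knockout array. Of 11 genes for cleavage and shedding, 1 rose, 1 fell and 9 did not pass. Mmp13, a collagenase, rose by 1.25 ± 0.13 (limma adjusted p = 0.000768). Dpp4, a surface peptidase that trims the amino ends of Cxcl10 and Cxcl12, read 4650, 5910 and 5656 in wild type and 3131, 2774 and 3136 in knockout and fell by 0.84 on the log2 scale (SE 0.10, limma adjusted p = 0.00158). With the mean over their probes, Mmp13 differed by 0.65 and Dpp4 by -0.43, and both passed. Adam10, the sheddase of Cxcl16, differed by -0.11 ± 0.09 (SE), but it was dimmer than the typical probe and lay in the range of background light.

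The genes whose profile over the 6 arrays lay nearest to that of Cxcl1 were Chst1, Diras2, Ankrd1, Sncg and P2ry14. Likeness was the Euclidean distance between log2 values centred on each gene's mean, among genes brighter than the median, and it ran from 0.26 for Chst1, a sulfotransferase of keratan sulfate, to 0.31 for P2ry14, a receptor for UDP-glucose. All 5 were higher in every knockout array than in any wild-type array, most so Sncg, which codes for gamma-synuclein (1.88 on the log2 scale). With 6 arrays in 2 genotypes the distance mainly reflects the genotype difference.

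Markers of cell types that a fibroblast culture could hold were measured beside these genes. Their counts stand against 2.20% of all genes that rose and 4.09% that fell. Of 12 measured leukocyte markers, 1 rose, 0 fell and 11 did not pass by limma, and their summed intensity was 17934 to 21726 in wild type and 22872 to 24343 in knockout. The pan-leukocyte marker Ptprc read 857 to 895 in wild type and 875 to 976 in knockout, below the array median in every array. The riser was Lyz2, a lysozyme of macrophages and neutrophils, with 0.56 ± 0.10 (SE, limma adjusted p = 0.0102), and 0.29 with the mean over its probes. Its call was lost without knockout replicate 3, after background correction and with the replicate block (limma adjusted p = 0.0714, 0.0759 and 0.05). No leukocyte marker passed under those 3 settings, and 3 passed without wild type replicate 2. Cd14 and Itgam were also higher in every knockout array without passing (0.35 ± 0.10 and 0.10 ± 0.07), Itgam below the array median throughout. No measured leukocyte marker had a negative log2 difference, and the median of the list was 0.09. Of 7 endothelial markers, Emcn rose (0.62 ± 0.09, limma adjusted p = 0.00319) and 6 did not pass, with sums of 9628 to 10200 in wild type and 10227 to 10768 in knockout. The defining endothelial marker Cdh5 read 946 to 1011 and 940 to 961. Tek and Esam were lower in every knockout array without passing (-0.29 ± 0.08 and -0.30 ± 0.08), and Pecam1 differed by 0.20 ± 0.09. The median log2 difference of the endothelial list was -0.06. Of 7 epithelial markers, the keratins Krt8 and Krt19 fell (-0.71 ± 0.07 and -0.45 ± 0.11, limma adjusted p = 0.000671 and 0.0425) and 5 did not pass, with sums of 10111 to 10422 and 8514 to 9280. Krt8 differed by -1.14 after background correction and by -0.41 with the mean over its probes. Krt19 lost its call when replicate 2 or 3 of either genotype was left out, after background correction and with the replicate block, with limma adjusted p up to 0.191. Epcam read 827 to 914 in wild type and 756 to 880 in knockout. Krt18 and Cldn4 were higher in every knockout array without passing (0.18 ± 0.08 and 0.31 ± 0.08). The median log2 difference of the epithelial list was 0.03, so its markers did not move in 1 direction.

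Of 11 fibroblast markers, all brighter than the median, 5 fell, 0 rose and 6 did not pass, with a median log2 difference of -0.50. Of all genes brighter than the median, 6.49% fell. Their summed intensity was 998493 to 1159060 in wild type and 814035 to 869662 in knockout. The collagen chain gene Col1a2 fell by 0.84 (SE 0.17), the small proteoglycan genes Lum and Dcn by 0.80 (SE 0.15) and 0.64 (SE 0.11), the receptor gene Pdgfrb by 0.75 (SE 0.18) and the surface antigen gene Thy1 by 0.60 (SE 0.11) on the log2 scale, with limma adjusted p of 0.0109 to 0.043. Leaving out wild type replicate 3 left 1 of these falls, leaving out knockout replicate 2 left 2, and leaving out knockout replicate 3 left 0. Background correction also left 0, the replicate block 2 and the mean over each gene's probes 3, where Thy1 differed by -0.33. The part of these markers in the differences of Cxcl1, Cxcl10 and Cxcl12 was not tested.

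**Figure D5:**
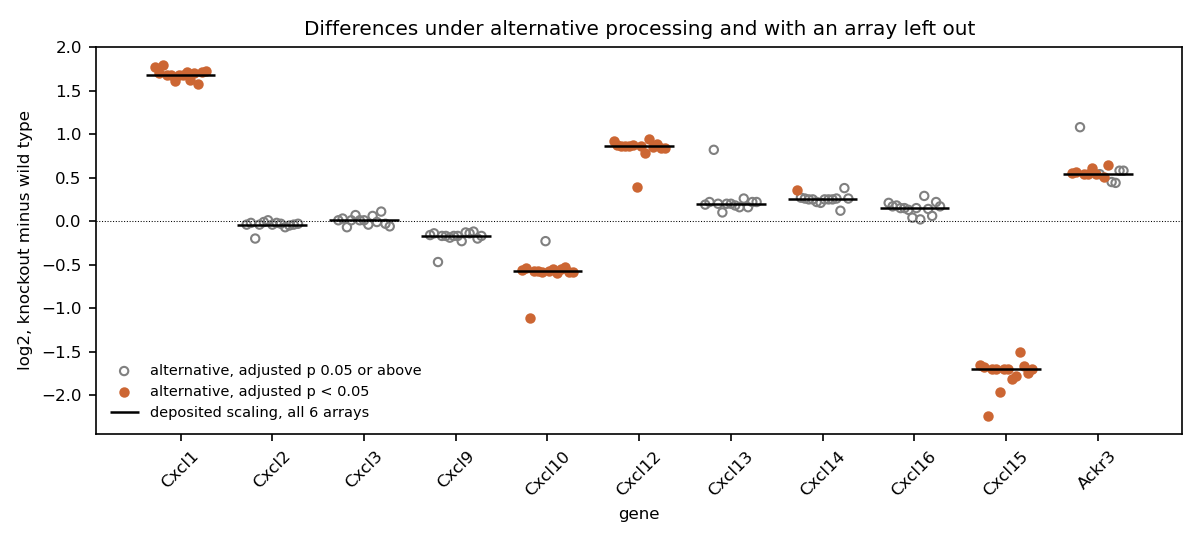
Log2 difference, knockout minus wild type (vertical axis), of the 9 measured members, Cxcl15 and Ackr3 (horizontal axis) with all arrays and the deposited scaling (black line) and under alternative processing or with 1 array left out (points, filled at a limma adjusted p under 0.05). Cxcl1, Cxcl12 and Cxcl15 pass in all 14 alternatives, Cxcl10 in 13 and Ackr3 in 8.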

How the data were processed

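Total RNA was converted to biotin-labelled cRNA for Illumina arrays, per the labels' protocols. The table deposited by the authors holds linear intensities, 1 per probe and array. For the scanner, its software and the treatment of background, the sources used here give nothing. Every array had a median of 1000, so values were taken to log2 without further normalization, and genotype was fitted over all 6 arrays by limma 3.58.1 under R 4.3.3 (lmFit, then eBayes without trend). Arrays give no counts, and their number limits the precision.

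Of 45281 probes, 34885 had 1 gene symbol in the supplied platform annotation, 18 had several and 10378 had none, and the gene fit used only the first kind. The Entrez identifier of 34807 was found in RefSeq GRCm38.p6, and 0 symbols needed an update. A gene was represented by its brightest probe, and all probes were also fitted together. Of all genes, 419 rose and 780 fell.

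The members and gene lists were chosen with earlier results of these data known. Named genes were all members, other ligands and receptors, up to 4 rises and 4 falls of each remaining list by adjusted p, and the 5 genes nearest to Cxcl1. Genes named beyond that rule, among them the fifth fibroblast fall, Pdgfrb, the chromosome neighbours and genes that did not pass, were chosen after their values were seen. Python 3.11.15 made the tables.

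In simulated data of 19057 genes for the comparison of knockout with wild type, limma called 53% of genes given a log2 change of 0.5 and 100% of those given 1, with 3 false calls. The changes were placed in 200 genes brighter than the typical probe, with independent noise. These figures therefore do not cover dim genes such as Cxcl2, Cxcl3 and Cxcl13, nor effects shared by a whole array. Alternatives were quantile normalization, upper quartile scaling, normexp background correction (offset 50), a restriction to bright genes, eBayes with trend and robust estimation, array weights, averaging each gene's probes, a replicate block, and leaving out each array.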

Additional observations from a re-analysis of the deposited data

How the results depend on the processing

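Cxcl1, Cxcl12 and Cxcl15 kept their direction and their call under all 14 alternatives, with log2 differences of 1.58 to 1.80, 0.39 to 0.94 and -2.24 to -1.51. Leaving out each array gave 2 to 2 rises and 1 to 1 falls among the member genes, and the same among member probes. Averaging each gene's probes left 0 member falls. Member probes that rose numbered 5 after quantile normalization and 4 after upper quartile scaling. Cxcl2 and Cxcl3, which are at background, changed sign without passing: Cxcl2 was 0.01 with the mean of its probes, and Cxcl3 was -0.07 after background correction, -0.04 and -0.01 without wild type replicates 1 and 3, and -0.03 and -0.06 without knockout replicates 2 and 3, against a highest value of 0.11 without knockout replicate 1. The cause of these changes was not tested.

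Of all genes, rises and falls numbered 1015 after quantile normalization (rises), 728 after upper quartile scaling (rises), 223 and 315 after background correction, 993 and 2288 with array weights, and 177 and 234 with the replicate block. Leaving out each array gave 207 to 734 rises and 244 to 1217 falls. Deviations of same-numbered arrays from their group means correlated at -0.41, -0.34 and 0.22, and the highest correlations were between wild type 2 and knockout 1 (0.47) and wild type 1 and knockout 2 (0.39). The shared numbers were therefore not taken as pairs, and the block was kept as an alternative. Under the replicate block Cxcl1, Cxcl10 and Cxcl12 passed (adjusted p = 0.00269, 0.0365 and 0.0119), and Ackr3 did not (adjusted p = 0.106), so receptor rises were 0. The block also gave 2 interferon input falls, 0 turnover rises, 0 leukocyte rises, 1 epithelial fall and 2 fibroblast falls.

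After background correction, list counts were 0 receptor rises, 2 NF-kB input rises, 2 interferon input falls, 0 turnover rises, 0 leukocyte rises, 1 epithelial rise, 1 epithelial fall and 0 fibroblast falls. Quantile normalization gave 8 NF-kB input rises, 1 interferon input rise, 2 leukocyte rises, 1 endothelial fall and 1 epithelial rise. Upper quartile scaling gave 7 NF-kB input rises, 1 interferon input rise, 2 leukocyte rises and 1 epithelial rise. Array weights gave 1 NF-kB input fall, 1 interferon input rise, 2 leukocyte rises, 2 endothelial falls, 1 epithelial rise and 9 fibroblast falls. Trend with robust estimation gave 1 endothelial fall and 1 epithelial rise. The mean of all probes gave 0 turnover rises, 1 epithelial rise and 3 fibroblast falls. Leaving out each array gave 0 to 1 receptor rises, 3 to 5 NF-kB input rises and 0 to 1 falls, 0 to 1 interferon input rises and 2 to 4 falls, 0 to 1 turnover rises, 0 to 3 leukocyte rises, 0 to 2 endothelial falls, 1 to 2 epithelial falls and 0 to 6 fibroblast falls. Genes close to the array median are limited by background light.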
